A study of Mus musculus with 8 samples.

Results

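Left ventricular transcripts of 10 regulators of cardiac energy metabolism were read in 8 mouse hearts. The genes are Ppargc1a and Ppargc1b (the PGC-1 coactivators), Ppara and Ppard (PPAR nuclear receptors), Esrra, Esrrb and Esrrg (estrogen-related receptors, ERR), Rxrg (a retinoid X receptor), and Tfam and Nrf1 (factors for mitochondrial and nuclear respiratory genes). They were taken by gene symbol, and the brightest probe set stood for a gene that had several. All 10 were found among the 19933 genes measured; Ppargc1a had 2 probe sets and each of the others had 1.

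The study asked whether microRNAs contribute to heart growth that follows new vessel formation, and compared these arrays to look for targets of a microRNA. Its mice carry a TET-OFF system, in which the tTA activator, driven in cardiomyocytes by the αMHC promoter, switches on a responder transgene when doxycycline is withdrawn. PlGF mice express placental growth factor, an angiogenic ligand, and PlGF/RGS4 mice express it together with RGS4, a protein that shortens G protein signalling; controls are littermates that inherited only 1 transgene, and which of them was not given. All mice were C57/Bl6, were kept on doxycycline until 5 weeks of age and then on normal chow for 6 weeks, and were 11 weeks old at harvest, with 3 control, 2 PlGF and 3 PlGF/RGS4 hearts on 1 Affymetrix Mouse Gene 1.0 ST array each.

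The PGC-1 proteins bind no DNA themselves. They dock on nuclear receptors and on NRF1 and raise transcription of genes for fatty acid oxidation, the citrate cycle and the respiratory chain. TFAM packages mitochondrial DNA and takes part in its transcription. In the heart, PPARα and its RXR partner act mainly on fatty acid handling and the ERR receptors mainly on oxidative metabolism.

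Some facts of the arrays touch every result. Pgf, which encodes PlGF, stood at 4136 and 917 intensity units in PlGF replicates 1 and 2 and at 211 to 387 in the controls, but only 211 to 300.0 in the hearts labelled PlGF/RGS4, where Rgs4 read 187 to 234 against 209.5 to 281.5 in control; since both transgenes go against the label, these hearts are named by it only, as PlGF/RGS4-labelled, and together with the PlGF hearts are called the 5 non-control hearts. PlGF replicate 1 stood apart, with a mean correlation of 0.976 with the arrays of the other groups against 0.991 to 0.993 for the rest. Cardiomyocyte markers were bright everywhere (Myh6 12023 to 13622) and the atrial markers Myl7 and Sln were dim (37.4 to 84.4), though Myl4 read 286 to 435. Of 7 adipocyte markers, 6 read 21.7 to 112.2, Adipoq and Ucp1 among them, and Cidea read 357.5 to 473.5. Of 10 leukocyte markers, 10 were above the control mean in both PlGF hearts, and their summed intensity was 12946 in PlGF replicate 1, 6525 in PlGF replicate 2 and 2693 to 3783 in the other arrays. The 6 endothelial markers summed to 12656 and 12252 in the PlGF hearts, where 4 of 6 were above the control mean, against 10431.5 to 11023 in control and 10150.2 to 10717 in the PlGF/RGS4-labelled hearts. The 8 cardiomyocyte markers summed to 90989.9 in PlGF replicate 1 and to 104544 to 107022 elsewhere. Of the 8, 1 was above the control mean in PlGF replicate 1 and 2 to 5 were in the other non-control hearts. Ryr2 read 3573 in PlGF replicate 1, 6479 to 7289 in the other non-control hearts and 7694 to 8408 in control. In whole tissue, fewer cells of a type and less RNA per cell cannot be told apart. Xist, the RNA of the silenced X chromosome, read 26.9 to 50.8 in 1 array of each group (PlGF replicate 1 among them) and 2581 to 2959 in the others.

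Promoter windows from RefSeq (GRCm38.p6) were read for 9 of the 10 regulators, in 15 windows, and Ppargc1b was left out of this reading. The 250 bases before the annotated start are shown, on the gene's own strand, for the 2 with the largest differences from control, Ppargc1a (chr5:51567726-51567975, minus strand) and Ppara (chr15:85735526-85735775, plus strand). Capitals mark matches to any of 5 motifs searched on both strands.
Ppargc1a: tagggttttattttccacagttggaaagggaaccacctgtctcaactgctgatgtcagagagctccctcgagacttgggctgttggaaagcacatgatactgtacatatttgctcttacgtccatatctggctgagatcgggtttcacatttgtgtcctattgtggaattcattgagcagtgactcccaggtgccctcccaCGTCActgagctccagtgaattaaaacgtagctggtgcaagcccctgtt
Ppara: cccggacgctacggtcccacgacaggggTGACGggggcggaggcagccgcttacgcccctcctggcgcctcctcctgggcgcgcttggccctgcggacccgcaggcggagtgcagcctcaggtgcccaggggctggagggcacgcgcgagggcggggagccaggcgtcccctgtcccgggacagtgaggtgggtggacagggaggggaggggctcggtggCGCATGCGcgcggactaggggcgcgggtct

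In these letters the Ppargc1a window holds 1 CRE core (TGACG, read here as its reverse complement CGTCA, 49 to 45 bases before the start), and the Ppara window holds 1 CRE core (222 to 218 bases before it) and 1 NRF1 core (CGCATGCG, 30 to 23 bases before it). Of 32851 windows of this length in the table, 17.8% hold the CRE core and 1.55% the NRF1 core. Neither window holds the nuclear receptor core AGGTCA (14.0% of all windows), the ERR element TCAAGGTCA (0.387%, which contains AGGTCA) or the full cAMP response element TGACGTCA (1.55%, which contains TGACG). Of the other windows, 1 of Rxrg holds AGGTCA and 1 of Esrrb holds TGACG in 2 places. G and C made up 48.0% of the Ppargc1a window and 76.4% of the Ppara window. These are matches of letters, not measured binding.

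**Figure D1:**
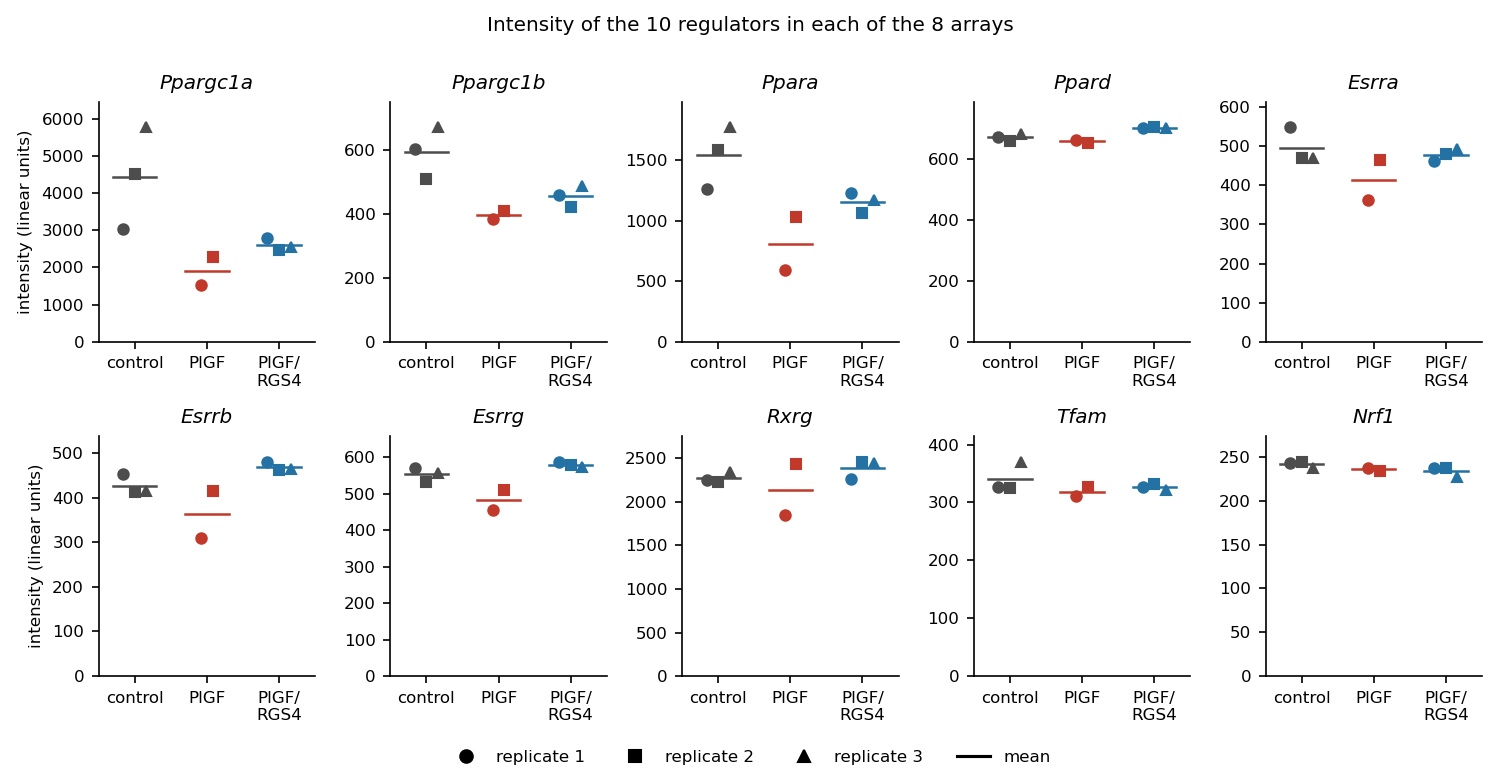
Intensity (linear units, axes from 0) of each of the 10 regulators by group, with 1 point per heart, the marker shape giving the replicate number and the line the group mean. Ppargc1a, Ppargc1b and Ppara sit lower in all 5 non-control hearts than in all 3 controls, with 3031 to 5766 units in control for Ppargc1a and 1523.5 to 2796 in the others, while Ppard, Tfam and Nrf1 stay near the same level in every group.

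The coactivators and PPARα stood lowest relative to control. Ppargc1a, which encodes the inducible coactivator PGC-1α, read 3031, 4519.7 and 5766 units in the 3 controls, 1523.5 and 2281 under PlGF alone, with 2796, 2460.0 and 2562 in the PlGF/RGS4-labelled hearts. The group means were 4439 ± 1369 (SD, n = 3), 1902 ± 536 (n = 2) and 2606 ± 172 (n = 3). Every non-control heart was below every control heart, although control replicate 1 lay only 235 units above the highest of them. The second probe set of the gene gave the same order of groups and larger log2 differences from control (−1.53 in PlGF and −0.91 in the PlGF/RGS4-labelled hearts), with 1715, 2642 and 3999.8 units in control and 727 and 1143 in PlGF, with 1477, 1305 and 1403 in the PlGF/RGS4-labelled hearts.

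Ppargc1b, which encodes the related and more constitutive coactivator PGC-1β, read 602, 509.5 and 670.0 units in control and 383 and 409 in PlGF, with 458, 420.3 and 488 in the PlGF/RGS4-labelled hearts. Ppara, the main receptor for fatty acids in heart muscle, read 1265, 1584 and 1771 units in control and 589 and 1026.5 in PlGF, with 1230.4, 1061 and 1168.5 in the PlGF/RGS4-labelled hearts. The means of control, PlGF and the PlGF/RGS4-labelled hearts were 594 ± 80.6, 396 ± 18.5 and 455 ± 34.0 (SD) for Ppargc1b and 1540 ± 256, 808 ± 309 and 1153 ± 85.8 for Ppara. For both genes the control range again lay above all 5 non-control hearts, by 21.4 units for Ppargc1b and 34.7 units for Ppara.

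On the log2 scale Ppargc1a differed from control by −1.20 ± 0.27 (SE) in PlGF, a 2.30-fold lower level, and the limma adjusted p was 0.0646. For Ppargc1b the difference was −0.58 ± 0.12, or 1.49-fold, with a limma adjusted p of 0.0534. Ppara stood at −0.97 ± 0.23, or 1.96-fold, with a limma adjusted p of 0.0723. None of these passed the threshold of 0.05 over all 19933 genes. The two-sided exact permutation p was 0.2 for Ppargc1a and 0.1 for Ppargc1b and Ppara, and 0.1 is the smallest that 2 arrays against 3 allow.

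These differences were larger in PlGF replicate 1 than in PlGF replicate 2. Without it Ppargc1a differed from control by −0.91 (limma adjusted p = 0.271, and 0.0156 to 0.271 over the arrays left out in turn) and Ppara by −0.57 (limma adjusted p = 0.233, and 0.0028 to 0.233). For Ppargc1b the difference without that heart was −0.53 (limma adjusted p = 0.197, and 0.0272 to 0.197). It was called under 4 other settings, with limma adjusted p from 0.0346 to 0.0472. These were quantile normalization, median centring, only the brighter genes and Xist as a covariate. Over all settings that keep every array, the adjusted p of Ppargc1b ran from 0.0346 with limma to 0.523 with the methods' t-test. The summed leukocyte and endothelial markers above were higher in both PlGF hearts than in control. Of the 6 endothelial markers, however, only 4 were above the control mean in each of these hearts. The summed cardiomyocyte markers were lower in PlGF replicate 1, where 1 of 8 was above the control mean. The part of these cell markers in the result was not tested.

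In the PlGF/RGS4-labelled hearts the leukocyte markers summed to 2693 to 3783 against 3030 to 3222 in control, and their part here was not tested. The 3 genes were below control in these hearts by smaller amounts. The log2 difference was −0.72 ± 0.24 for Ppargc1a, −0.38 ± 0.11 for Ppargc1b and −0.41 ± 0.21 for Ppara, with limma adjusted p of 0.945, 0.858 and 0.995. With 3 arrays against 3 the two-sided exact permutation p was 0.1 for each, the smallest this design allows. The difference between PlGF and the PlGF/RGS4-labelled hearts was −0.48 ± 0.27 for Ppargc1a, −0.20 ± 0.12 for Ppargc1b and −0.57 ± 0.23 for Ppara (limma adjusted p = 0.350, 0.371 and 0.244). The 95% interval of that difference was −1.11 to 0.15 for Ppargc1a, −0.47 to 0.08 for Ppargc1b and −1.11 to −0.02 for Ppara. Both comparisons with control share the same 3 control arrays.

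Chosen after the data were seen, the mean of the 5 non-control hearts was also set against control. Among them the PlGF/RGS4-labelled hearts showed neither Pgf nor Rgs4 above control. Ppargc1a differed by −0.91 ± 0.21 (limma adjusted p = 0.241), Ppargc1b by −0.46 ± 0.09 (limma adjusted p = 0.210) and Ppara by −0.63 ± 0.19 (limma adjusted p = 0.313). The two-sided exact permutation p over 56 arrangements of 5 arrays against 3 was 0.0179 for both coactivators, the smallest possible, and 0.0357 for Ppara. These 3 were the members whose 5 non-control arrays all lay below the controls, as did 3.77% of all genes. At an unadjusted p under 0.05 the same 3 of 10 were lower, against 5.71% of all genes, and 0 of 10 were called after adjustment, against 0.0602%.

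**Figure D2:**
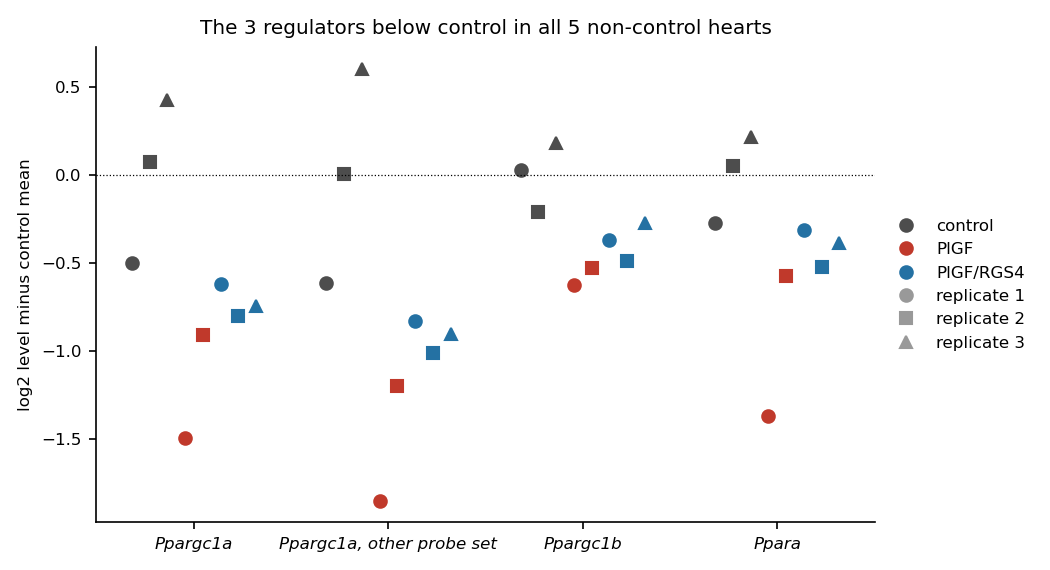
Log2 level minus the control mean (y axis) of Ppargc1a, its other probe set, Ppargc1b and Ppara in each heart, coloured by group, with the marker shape giving the replicate number. All 5 non-control hearts lie below the lowest control for each probe set, and PlGF replicate 1 lies lowest, at −1.49 for Ppargc1a and −1.37 for Ppara.

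The control hearts were themselves uneven for these genes. The SD of the log2 level over the 3 controls was 0.47 for Ppargc1a, 0.25 for Ppara and 0.20 for Ppargc1b, against a median of 0.07 over all genes. These SDs stood at the 99.6th, 97.1st and 94.0th percentile of all genes. Control replicate 1 was the lowest control for Ppargc1a and Ppara, and control replicate 3 the highest, with a 1.90-fold range for Ppargc1a. Among the PlGF/RGS4-labelled hearts the SD was 0.09 for Ppargc1a and 0.11 for Ppargc1b and for Ppara. When any 1 array was left out, the difference between the PlGF/RGS4-labelled hearts and control ran from −0.97 to −0.51 for Ppargc1a.

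Ppard, which encodes the more widely expressed PPARδ, read 671, 661 and 682.5 units in control and 663 and 653 in PlGF, with 703, 704 and 702 in the PlGF/RGS4-labelled hearts. Its difference from control was −0.03 ± 0.04 in PlGF, with a 95% interval of −0.13 to 0.07, and 0.07 ± 0.04 in the PlGF/RGS4-labelled hearts, where all 3 lay above the controls, close together (SD 0.0018 on the log2 scale). Rxrg, the retinoid X receptor form of striated muscle, read 2252, 2229 and 2342 units in control and 1852 and 2435 in PlGF, with 2267.5, 2465 and 2446 in the PlGF/RGS4-labelled hearts. The PlGF hearts lay on either side of the control range, and the log2 difference was −0.10 ± 0.11 with a 95% interval of −0.35 to 0.16; it was 0.10 without PlGF replicate 1.

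The 3 ERR genes were lower in PlGF replicate 1 than in every control, and departed less from the control mean in the other hearts. Esrra, which encodes ERRα, a partner of PGC-1α on respiratory genes, read 548, 469 and 470.1 units in control and 362 and 465 in PlGF, with 462, 481 and 492 in the PlGF/RGS4-labelled hearts. Esrrg, which encodes ERRγ, prominent in heart after birth, read 570.2, 532 and 555 units in control and 454 and 509 in PlGF, with 588, 577 and 574 in the PlGF/RGS4-labelled hearts. Both PlGF hearts lay below every control for these 2 genes, for Esrra by a margin within which PlGF replicate 2 almost met control replicate 2. Esrrb, which encodes ERRβ, read 453, 412.6 and 414.9 units in control and 310.2 and 414.8 in PlGF, with 481, 461 and 464 in the PlGF/RGS4-labelled hearts, so that PlGF replicate 2 fell inside the control range.

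The log2 difference between PlGF and control was −0.27 ± 0.12 for Esrra, −0.25 ± 0.11 for Esrrb and −0.20 ± 0.06 for Esrrg, with limma adjusted p of 0.222, 0.249 and 0.126. Without PlGF replicate 1 these became −0.09, −0.04 and −0.12. Esrrb and Esrrg were above all controls in the PlGF/RGS4-labelled hearts, by 0.14 ± 0.10 and 0.07 ± 0.06, so that their largest difference was between PlGF and the PlGF/RGS4-labelled hearts, at −0.38 ± 0.11 for Esrrb (limma adjusted p = 0.154) and −0.27 ± 0.06 for Esrrg (limma adjusted p = 0.0988). Neither passed the threshold. Without PlGF replicate 2, which leaves PlGF replicate 1 alone in its group, the differences were −0.59 and −0.35. Esrra differed between these groups by −0.22 ± 0.12 (limma adjusted p = 0.325), with overlapping arrays. Over the settings that kept every array, the difference between PlGF and control stayed below 0 for all 3, from −0.32 to −0.24 for Esrra, −0.30 to −0.21 for Esrrb and −0.25 to −0.18 for Esrrg.

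Tfam and Nrf1 differed little between groups. Tfam read 326.6, 324 and 371 units in control and 311 and 326.6 in PlGF, with 326.6, 331 and 322 in the PlGF/RGS4-labelled hearts, with a difference between PlGF and control of −0.09 ± 0.07 and a 95% interval of −0.25 to 0.07. Nrf1, the nuclear respiratory factor that activates genes of the respiratory chain, read 243, 245 and 237.5 units in control and 237.5 and 234.5 in PlGF, with 237.5, 237.5 and 227.5 in the PlGF/RGS4-labelled hearts. Its difference between PlGF and control was −0.03 ± 0.05, with a 95% interval of −0.14 to 0.08. In the PlGF/RGS4-labelled hearts the difference from control was −0.06 ± 0.06 for Tfam and −0.05 ± 0.04 for Nrf1, and their arrays overlapped the controls. The same reading recurred in 4 arrays for Nrf1 and in 3 for Tfam, and 30.3% of all probe sets held the same value in at least 3 arrays.

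**Figure D3:**
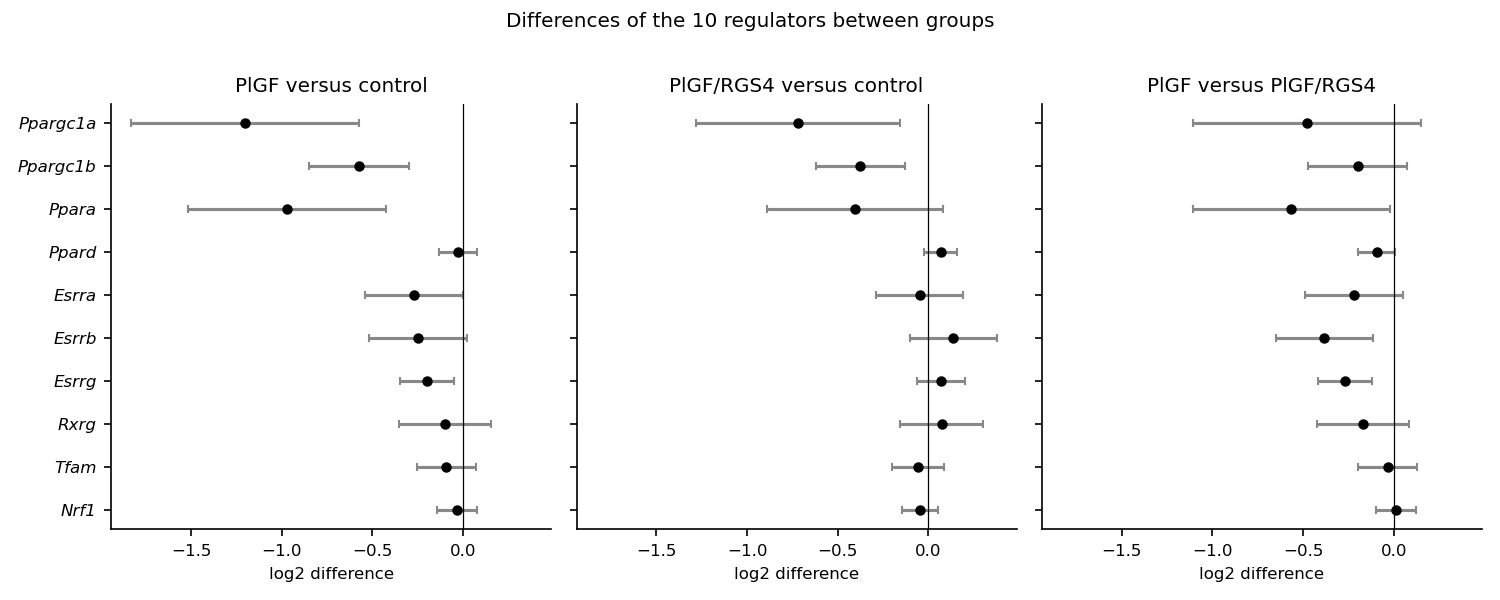
Log2 differences (x axis, first group minus second) of the 10 regulators in the 3 comparisons, with points for the estimate and bars for the 95% interval of the limma fit, unadjusted for the number of genes. In PlGF versus control the points run from −1.20 for Ppargc1a to −0.03 for Ppard and all lie below 0, whereas the PlGF/RGS4-labelled hearts lie on both sides of it.

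Over the 10 regulators, 0 were called at a limma adjusted p under 0.05 in PlGF versus control, where 2.53% of all genes were. At an unadjusted p under 0.05, 4 of 10 were lower (Ppargc1a, Ppargc1b, Ppara and Esrrg) and 0 higher, against 11.7% of all genes lower, and the methods' t-test gave 1 at their threshold (Ppargc1b, against 9.49% of all genes) and 0 after Benjamini-Hochberg adjustment. The PlGF arrays lay below all controls for 5 of 10, against 19.5% of all genes. Without PlGF replicate 2 the count called was 7 (all but Ppard, Tfam and Nrf1), where 29.7% of all genes were called, and without PlGF replicate 1 it was 0, against 1.84%. The median log2 difference of the 10 was −0.22, beside −0.03 over all genes, and it was −0.07 without PlGF replicate 1.

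In the PlGF/RGS4-labelled hearts versus control, 0 of 10 were called by limma, against 0.0151% of all genes. At an unadjusted p under 0.05, 2 were lower (Ppargc1a and Ppargc1b), against 2.28%, and the methods' t-test gave 3 at their threshold (Ppargc1b, Ppard and Esrrb, against 6.75%) and 0 after adjustment. The arrays lay below all controls for 3 genes (5.85% of all genes) and above them for 3 (6.96%), and the median of the 10 was −0.05 beside 0.0030. Between PlGF and the PlGF/RGS4-labelled hearts, 0 of 10 were called (1.19% of all genes), 3 stood lower at an unadjusted p under 0.05 (Ppara, Esrrb and Esrrg, against 10.6%), and the methods' t-test gave 2 (Ppard and Esrrg, against 8.17%) and 0 after adjustment. There the PlGF arrays lay lower for 6 of 10 (19.9%), with a median of −0.21 beside −0.03.

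Target genes and other genes of the pathway were taken from 5 lists, of which 109 of 120 genes were measured; none of the 109 was called in any of the comparisons by limma at an adjusted p under 0.05. Over all genes, 58.7% were below control in PlGF, 11.7% were lower and 10.9% higher at an unadjusted p under 0.05, and 48.4% were below control in the PlGF/RGS4-labelled hearts. Of 24 PPAR target genes of fatty acid handling, 21 were below control in PlGF, 10 of them at an unadjusted p under 0.05, and the median was −0.35, or −0.06 without PlGF replicate 1. Plin5, which coats lipid droplets in oxidative tissue, read 324 and 612 units in PlGF and 778 to 1057 in control, and Mlycd, which breaks down malonyl-CoA, read 353 and 534 against 626 to 687. Their log2 differences were −0.95 ± 0.26 and −0.60 ± 0.15 (limma adjusted p = 0.0914 and 0.0825). Hadha and Hadhb, subunits of the mitochondrial trifunctional protein of β-oxidation, stood at −0.36 ± 0.12 and −0.44 ± 0.12 (limma adjusted p = 0.138 and 0.100). In the PlGF/RGS4-labelled hearts the list's median was −0.02, with 15 of 24 below control, beside the 48.4% of all genes.

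All 27 measured ERR and NRF1 target genes of the citrate cycle and respiratory chain were below control in PlGF, 16 at an unadjusted p under 0.05 (over all genes 58.7% and 11.7%), with a median of −0.24, or −0.07 without PlGF replicate 1. Mfn2, a fusion protein of the outer mitochondrial membrane, read 3868 and 4748 units against 5561 to 5742 in control, and Cs, citrate synthase, read 7288 and 8153 against 9027 to 9609.9. Their log2 differences were −0.40 ± 0.09 and −0.29 ± 0.06 (limma adjusted p = 0.0602 and 0.0627). Fh1, fumarase, and Cox4i1, a subunit of cytochrome c oxidase, stood at −0.39 ± 0.11 and −0.31 ± 0.10 (limma adjusted p = 0.106 and 0.124). In the PlGF/RGS4-labelled hearts the list's median was −0.02, and 21 of 27 were below control, beside 48.4% of all genes.

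The genes of mitochondrial DNA upkeep, import and biogenesis stood closer to control in PlGF, with a median of −0.08, or −0.07 without PlGF replicate 1. Without that heart the medians of the PPAR targets and of the ERR and NRF1 targets were alike, at −0.06 and −0.07. In PlGF 17 of the 21 upkeep, import and biogenesis genes were below control, 4 at an unadjusted p under 0.05 (over all genes 58.7% and 11.7%). Their smallest p belonged to Mterf3, a mitochondrial transcription termination factor (−0.23 ± 0.07), Timm44, part of the import motor (−0.22 ± 0.07), Mgme1, a nuclease of mitochondrial DNA (−0.35 ± 0.12), and Gabpa, a subunit of nuclear respiratory factor 2 (−0.21 ± 0.07), with limma adjusted p from 0.112 to 0.155. Of 15 other nuclear receptors 10 were below control, 2 at an unadjusted p under 0.05, shares near those of all genes, with a median of −0.06. Pparg, the receptor of fat cell formation, read 602 and 549 units in PlGF, 556 to 623.5 in the PlGF/RGS4-labelled hearts and 652.5 to 798.5 in control, lower in all 5 non-control hearts (−0.32 ± 0.10 in PlGF, limma adjusted p = 0.114). Thrb, Nr4a2 and Nr1d2, the others named by p, had overlapping arrays, with differences of −0.44 ± 0.18, 0.53 ± 0.23 and −0.37 ± 0.17.

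Partners and modifiers of PGC-1 showed no common direction in PlGF, with 11 of 22 below control and a median of 0.0044; 3 were lower and 2 higher at an unadjusted p under 0.05, near the 11.7% and 10.9% of all genes. Lpin1, lipin 1, a coactivator and lipid phosphatase, read 1186 and 2013.5 units against 2272 to 3100.0 in control (−0.78 ± 0.21, limma adjusted p = 0.0954), and Sirt3, the mitochondrial deacetylase, read 314 and 357 against 411 to 439 (−0.33 ± 0.07, limma adjusted p = 0.0564). Prkaa1, a catalytic subunit of AMPK, and Mef2c, a muscle transcription factor, read higher in both PlGF hearts than in all controls, by 0.25 ± 0.08 and 0.24 ± 0.09 (limma adjusted p = 0.124 and 0.166). Mef2c lay above all controls in the PlGF/RGS4-labelled hearts too, at 981 to 1035 units against 777.5 to 946 in control.

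**Figure D4:**
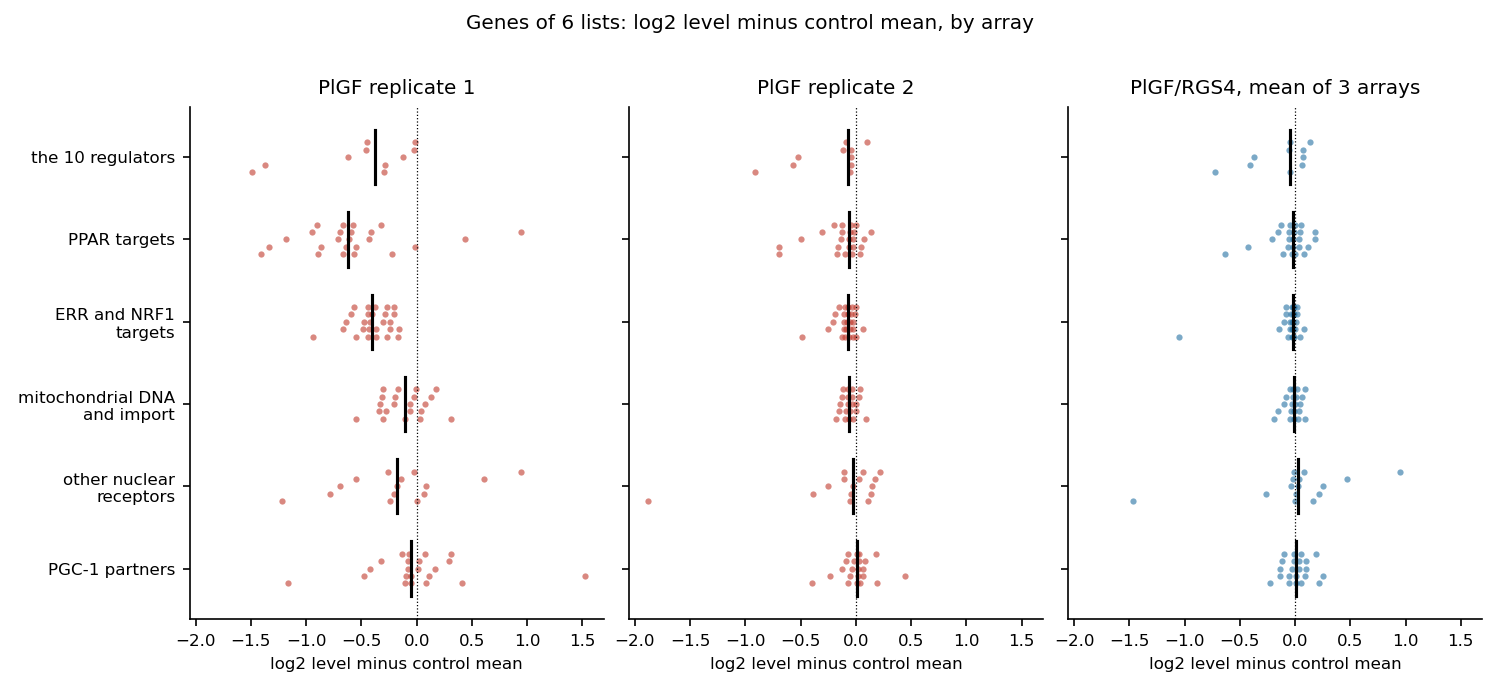
Log2 level minus the control mean (x axis) of each gene of 6 lists in PlGF replicate 1, in PlGF replicate 2 and in the mean of the 3 arrays labelled PlGF/RGS4, with 1 point per gene and a black bar at the list's median. In PlGF replicate 1 the medians lie at −0.62 for PPAR targets and −0.40 for ERR and NRF1 targets, and in PlGF replicate 2 at −0.06 and −0.07.

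By array, the PPAR targets had a median of −0.62 in PlGF replicate 1 and −0.06 in PlGF replicate 2, and the ERR and NRF1 targets −0.40 and −0.07. In each of the other 6 arrays both medians lay between −0.03 and 0.0072. The 10 regulators had medians of −0.37 and −0.07 in the PlGF hearts. Their medians were −0.04 to 0.03 in the controls and −0.04 to −0.03 in the PlGF/RGS4-labelled hearts. Of the 10 regulators, 10 and 9 were below the control mean in PlGF replicates 1 and 2, against 11612 and 10578 of all 19933 genes. Over all genes the median lay between −0.04 and 0.0064 in every array.

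The genes whose pattern over the 8 arrays was nearest to that of 3 of the regulators were found by the root mean square difference of log2 levels, each gene centred on its control mean, among 9686 genes. Nearest to Ppargc1a were Alox5 (5-lipoxygenase), Map3k6 (a MAP kinase kinase kinase), Noct (nocturnin), Slc25a34 (a mitochondrial carrier) and Pik3r1 (the regulatory subunit of PI3 kinase), at 0.18 to 0.23, where Ppargc1a itself had a root mean square of 0.80. Nearest to Ppara were Sesn1 (sestrin 1), Rmdn1, Gpcpd1 (a glycerophosphocholine phosphodiesterase), Kcnd2 (a pore subunit of the transient outward potassium current) and Slc25a34, at 0.11 to 0.13 against 0.60. Nearest to Esrra were Mmaa (a cobalamin protein), Msra (methionine sulfoxide reductase A), Slc25a27 (a mitochondrial carrier), Rnf166 (a ubiquitin ligase) and Arhgap5 (a GTPase activating protein), at 0.04 against 0.18. Slc25a34, listed for both Ppargc1a and Ppara, read 889, 911 and 1113 units in control and 372 and 547 in PlGF, with 702, 664.5 and 714 in the PlGF/RGS4-labelled hearts, with all 5 non-control hearts below all controls. These genes were chosen for their pattern, so their differences are a description.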

How the data were processed

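The authors deposited 1 table of linear intensity values, made with MAS5, Affymetrix settings and global scaling per the methods; MAS5 is also named in the submitters' processing notes, and the genome build of the probe sets is not given in the sources used here. Intensities ran from 7.1 to 21704, with array medians of 111.1 to 115.15. Of 28440 probe sets, 23398 were named, 21780 with 1 symbol, and the brightest of each gene gave 19933 genes. The same value stood in at least 2 arrays for 57.6% of probe sets, and for 26.3% of the 2799 that read 1000 or more in every array, so SDs can be small. The number of arrays limits the precision.

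Values were analysed as log2(intensity + 1), which understates changes of dim genes, with limma 3.58.1 under R 4.3.3 (lmFit, then eBayes, as 1 fit of 3 group means over 8 arrays, Benjamini-Hochberg over 19933 genes, threshold 0.05), after tests on simulated data. Replicates are those the labels call biological, and which arrays came from the same litter is not given. Single genes had two-sided exact permutation tests on the difference of mean log2. Motifs were counted with Python 3.11.15. Named from each list were the 4 genes with the smallest unadjusted p in PlGF versus control, and the 5 nearest patterns for 3 regulators, among named genes above the median level. List genes without a match by symbol were not analysed here. The members and lists were chosen with earlier results of these data known. Alternatives were other scalings, a pseudocount of 16, only genes above the median level, the mean of probe sets, another prior, array weights, only the 2 groups compared, the methods' t-test, a replicate block, Xist as a covariate and each array left out.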

Additional observations from a re-analysis of the deposited data

Results flagged for a closer look

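Of the 10 regulators, 3 stood on opposite sides of the control mean in the other groups. They were below it in both PlGF hearts and above it in all 3 PlGF/RGS4-labelled hearts. The share of all genes with this pattern was not counted. Ppard in PlGF replicate 1 (663.2 units) lay inside the control range of 660.7 to 682.5. Esrrb in PlGF replicate 2 (414.8 units) lay inside the control range of 412.6 to 452.9. For Ppard the difference between PlGF and the PlGF/RGS4-labelled hearts was −0.0957 ± 0.04 (log2, SE; limma adjusted p = 0.279), for Esrrb −0.3847 ± 0.11 (limma adjusted p = 0.154) and for Esrrg −0.2696 ± 0.06 (limma adjusted p = 0.0988). The limma contrast between these groups is the test of the difference, and none of the 3 passed it. Without PlGF replicate 1 the differences were −0.11, −0.18 and −0.19.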

How the results depend on the processing

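No regulator was called in the fit reported, so the 19 other settings could only add calls. In PlGF versus control, 1 regulator (Ppargc1b) was called with quantile normalization, with arrays centred on their median, with only genes above the median level, and with Xist as a covariate; the count was 0 to 7 with each array left out. Of the 109 list genes, 3 were called with arrays centred on their median and 1 with only genes above the median level, and 0 to 63 with each array left out. Between PlGF and the PlGF/RGS4-labelled hearts the counts with each array left out were 0 to 5 regulators and 0 to 62 list genes, and for both non-control groups together 0 to 3 and 0 to 35; the highest counts all came without PlGF replicate 2, where PlGF replicate 1 stood alone for its group and was assumed to vary like the others. The median of the regulators with each array left out ran from −0.3734 to −0.073 in PlGF versus control and from −0.3604 to −0.1295 between the non-control groups. The number of all genes called in PlGF versus control, 505 in the fit reported, was 17 to 5921 with each array left out, and 0 to 693 under the other settings. Between the non-control groups it was 237, then 11 to 5591 and 1 to 296, and for both groups together 12, then 0 to 2636 and 0 to 22. No difference was called where its sign was reversed. With arrays centred on their median, Nrf1 between the non-control groups was −0.0334 and Rxrg in both non-control groups together −0.0216; with quantile normalization Nrf1 was −0.0266; with Xist as a covariate Esrrb in both groups together was 0.0008. With each array left out, Rxrg ran from −0.2963 to 0.0985 in PlGF versus control and from −0.3687 to 0.0261 between the non-control groups, Esrra from −0.0866 to 0.0257 and Tfam from −0.0912 to 0.0052 in the PlGF/RGS4-labelled hearts versus control, Tfam from −0.0703 to 0.0001 and Nrf1 from −0.0091 to 0.0218 between the non-control groups, and, in both groups together, Esrrb from −0.1015 to 0.0657 and Rxrg from −0.0751 to 0.0828. The cause was not tested.

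Whether the replicate numbers pair the arrays could not be decided. The correlation of deviations ran from −0.2175 to 0.2957 between same-numbered arrays and from −0.2353 to 0.2175 between the others. Same-numbered control and PlGF/RGS4-labelled hearts gave 0.0756, 0.2957 and 0.1008, and differently numbered ones −0.2353 to 0.1585. The 2 PlGF arrays deviate from their mean in exact opposition, so their correlations are not independent. With the replicate block, 27 genes and 0 regulators were called in PlGF versus control, Ppargc1a stood at −1.1013 (limma adjusted p = 0.141), and Nrf1 between the non-control groups at −0.0051. The small number of arrays, 2 in the PlGF group, limits the precision of every value.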

Other observations

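Among the 119 regulators and list genes, those with the widest spread over the 3 controls were Nr4a3, an immediate early nuclear receptor, at 65.8, 240.1 and 727.5 units, Pdk4, the kinase that holds pyruvate back from oxidation, at 3219, 6494 and 8161, Bdh1, of ketone oxidation, at 1907.5, 1220.2 and 729, Nr1d1, a clock repressor, at 1465, 2982 and 2822, and Ppargc1a at 3031, 4519.7 and 5766. These were chosen after their values were seen. Nr4a3 and Pdk4 had the same order of the 3 control hearts as Ppargc1a and Ppara. In the 5 non-control hearts Nr4a3 read 60.6 to 96.6 and Pdk4 2673 to 4217, a range that held control replicate 1 for both genes.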
